A study of Mus musculus with 15 samples.

Results

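The expression of 33 genes of cholesterol synthesis, uptake and efflux was followed in A20 cells, a B-cell lymphoma line from BALB/c mice, and in 4 clones of it carrying mutations in Foxp1, the gene of a fork head transcription factor. The genes were listed by name for their roles in the pathway, with earlier results of these data known, and all 33 were found among the 41388 mouse genes in the count files. They comprise 18 synthesis enzymes, 1 enzyme of the isoprenoid branch (Ggps1), 5 genes of sterol sensing (Insig1, Insig2, Srebf1, Srebf2 and Scap), 5 of sterol uptake, transport and storage (Stard4, Npc1, Npc2, Mylip and Soat1), and 4 of efflux (Abca1, Abcg1, Nr1h2 and Nr1h3). All 33 passed the filter on low counts, and the tests below were fitted to all 13904 genes that passed it. Messenger RNA was sequenced from 15 libraries, 3 for each line. The A20 parental cells carried wild-type Foxp1 and were not cloned. E6.1 and E6.2 carried a mutation in exon 6 of Foxp1, and E7.1 and E7.2 a mutation in exon 7. Each of these 4 lines was a single clone, obtained after electroporation of a plasmid coding for Cas9 and a guide RNA, sorting on GFP and dilution to single cells, and its frameshift led to an early stop codon. The 3 libraries of a line were biological replicates from different passages, so clones are compared here over passages of 1 clone each. The paper describes a difference between the targeted exons in the smaller protein isoforms that remained on Western blots. On these blots, targeting of exon 7 depleted every Foxp1 isoform seen in parental cells. Targeting of exon 6 depleted the larger of the short isoforms, and full-length Foxp1 was lost in most clones of either exon. With 2 clones for each exon, the targeted exon, the short Foxp1 protein that remained and the choice of clones cannot be told apart.

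As background, the level of sterol in the membrane of the endoplasmic reticulum sets both arms of this pathway. When sterol is low, SCAP carries the SREBP transcription factors to the Golgi for cleavage, and their released fragments raise the enzymes of synthesis and the genes of uptake; when sterol is high, the INSIG proteins hold SCAP back. When oxysterols accumulate, the nuclear receptors LXR alpha and LXR beta (coded by Nr1h3 and Nr1h2) raise the exporters Abca1 and Abcg1 as well as Mylip, a ubiquitin ligase that removes lipoprotein receptors. Lymphocytes draw on both arms when they grow and divide.

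Libraries held between 26328054 and 39181530 counted read pairs (median 35586010). Foxp1 itself was at 102 to 166 CPM (counts per 1000000 after scaling by TMM factors) in parental libraries, 99.5 to 109 CPM in the E6.1 and E6.2 libraries and 37.1 to 64.3 CPM in the E7.1 and E7.2 libraries. Its log2 fold change between exon 7 and exon 6 clones was -1.09 ± 0.14 (SE, adjusted p = 0.000609, edgeR quasi-likelihood test with Benjamini-Hochberg adjustment, as in all tests below unless another is named). The 9 B-cell markers summed to 2964 to 4552 CPM in every library, whereas those of T cells, granulocytes, fibroblasts and hepatocytes each summed to 0.774 CPM or less. The 5 macrophage markers summed to 4.96 to 13.4 CPM in the exon 6 clones and 10.8 to 32.3 CPM in the exon 7 clones. Some libraries stood apart. In E6.2 replicate 1, 10.35% of the counts fell on Gm42418, a gene that overlaps ribosomal RNA sequence, followed by 2.22% in parental replicate 1 and 0.0604% to 0.315% in the other libraries, and in E7.2 replicate 3, 10.36% were mitochondrial, against 0.85% to 7.28% elsewhere. E6.2 replicate 3 and E7.2 replicate 3 deviated alike from their lines, with a correlation of 0.43 over the tested genes. Parental replicate 1 stood apart in the cholesterol genes themselves, as described below.

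Promoter windows of RefSeq (GRCm38.p6, 250 bases before to 50 bases after the start of transcription) were held for 27 of the 33 genes, and 3 motifs were searched in them on both strands. No window was held for Fdps, Fdft1, Sqle, Stard4, Npc1 and Abcg1, so these 6 genes were not searched for any motif. The CCAAT box, bound by the factor NF-Y that works beside SREBP at many sterol promoters, was found in 14 of the 15 synthesis enzymes with a window, in Ggps1, in 4 of 5 genes of sterol sensing, in 3 of 3 genes of uptake, transport and storage and in 0 of 3 efflux genes. Mylip and Soat1, which were lower in the exon 7 clones, are among the genes with the box. It was present in 43.5% of the 9488 tested genes with a window. A sterol regulatory element written as CACNCCAC was found in 2 of the 15 enzymes, Hmgcs1 and Acat2, and in Insig1, against 7.5% of tested genes. A direct repeat of the LXR half-site, searched as GGTNA, 5 bases and GGTNA again, was found in Abca1 and Srebf1, against 0.6% of tested genes. These are matches of letters and do not show that a factor binds. The 6 stretches below are shown because their genes carried large differences between clones or the only LXR repeats, with the motifs in capitals, read 5′ to 3′ on the gene's own strand and ending upstream of the start.
Acat2 (chr17:12960756-12960815, minus strand, sterol regulatory element on the opposite strand): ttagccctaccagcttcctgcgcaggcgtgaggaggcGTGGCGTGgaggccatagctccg
Hmgcs1 (chr13:119690171-119690250, plus strand, CCAAT box on the opposite strand, then sterol regulatory element): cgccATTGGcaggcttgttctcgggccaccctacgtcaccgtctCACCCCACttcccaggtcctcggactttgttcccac
Lss (chr10:76531505-76531564, plus strand, CCAAT box on the opposite strand): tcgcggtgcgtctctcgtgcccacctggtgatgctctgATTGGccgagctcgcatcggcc
Hsd17b7 (chr1:169969256-169969315, minus strand, CCAAT box on the opposite strand): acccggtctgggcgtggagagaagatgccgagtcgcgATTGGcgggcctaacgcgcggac
Abca1 (chr4:53159936-53159995, minus strand, LXR repeat on the opposite strand): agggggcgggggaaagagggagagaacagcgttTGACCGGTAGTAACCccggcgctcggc
Srebf1 (chr11:60210622-60210681, minus strand, LXR repeat on the opposite strand): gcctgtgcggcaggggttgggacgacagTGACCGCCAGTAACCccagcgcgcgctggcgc

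In parental cells the levels of the 33 genes spanned a wide range when counts were divided by exon length. Fdps, which makes farnesyl diphosphate, was the highest at 155 CPM per kb, followed by Hmgcs1 at 82.1 and Cyp51 at 50.3 CPM per kb. The lowest were the lanosterol-branch reductase Tm7sf2 at 1.83 and Nr1h3 at 0.397 CPM per kb. Of the efflux genes, Abca1 stood at 14.02, Nr1h2 at 6.21 and Abcg1 at 2.65 CPM per kb. Nr1h3 was supported by only 10 to 100 counts per library and Abcg1 by 50 to 672, which sets the precision of their values, while Hmgcs1 had 3074 to 25532. In all values that follow, the 3 numbers given for a line are its replicates 1, 2 and 3 in that order.

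**Figure D1:**
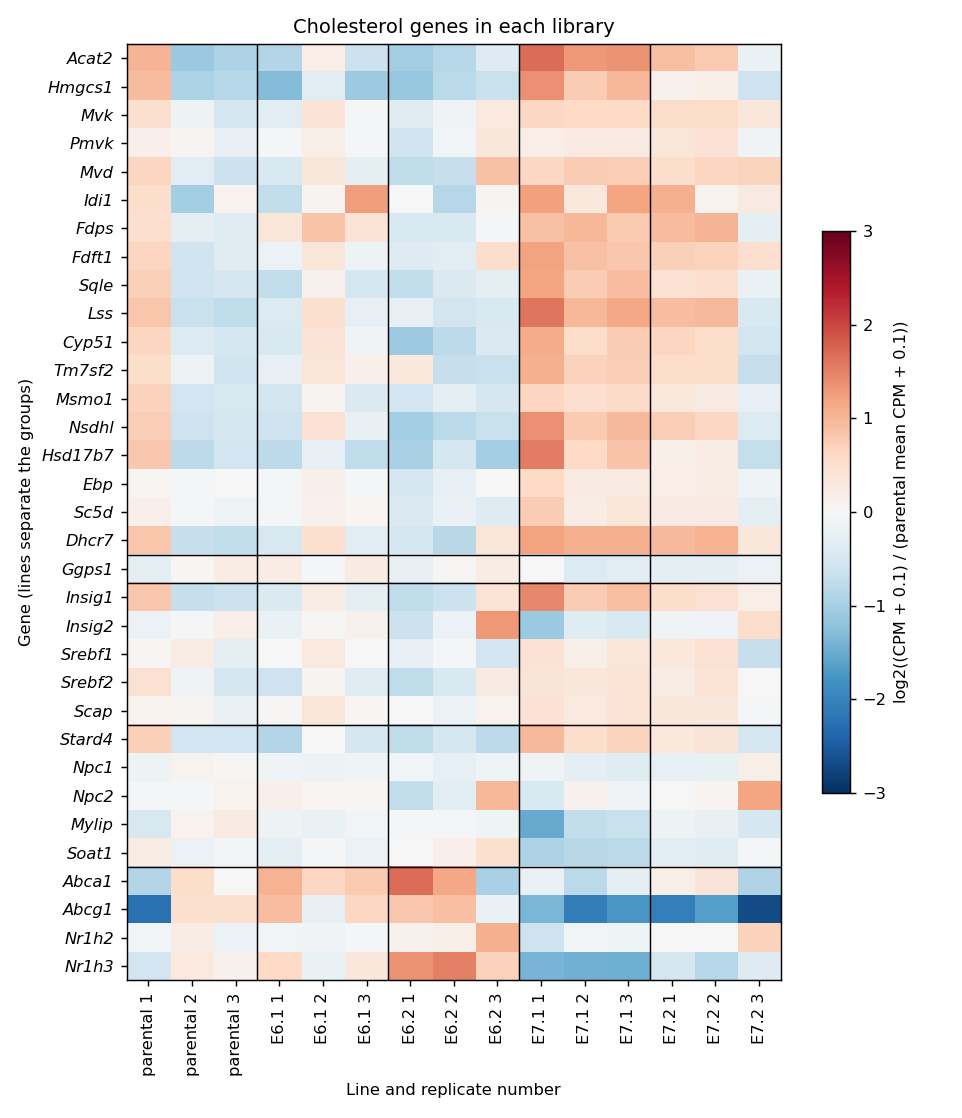
Level of each of the 33 genes (rows) in each of the 15 libraries (columns) as the log2 ratio of CPM to the mean of the parental libraries, with 0.1 CPM added to both. Red marks levels above and blue levels below the parental mean. The synthesis enzymes at the top are mostly red in parental replicate 1, in the 3 E7.1 libraries and in E7.2 replicates 1 and 2. Abcg1 near the bottom is blue in these libraries. E6.1 replicate 2 shows the same pattern more weakly, with an enzyme median of 0.28 and Abcg1 at -0.24.

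Most calls in this pathway lay between the exon 7 and the exon 6 clones. That contrast set 6 libraries against 6, while each clone was set against parental cells with 3 and 3. The numbers of calls therefore do not rank the sizes of these differences. Synthesis enzymes were higher in the exon 7 clones, with 12 of 18 called higher and 0 lower, while 2 of the 4 efflux genes, Abcg1 and Nr1h3, were called lower and 0 higher. Over all 33 genes 14 were called higher and 4 lower, where 12.1% of all tested genes were called, 6.21% higher and 5.85% lower. The median log2 fold change was 0.75 for the synthesis enzymes, with all 18 positive (range 0.27 to 1.57), and -1.54 for the efflux genes, with all 4 negative (range -2.47 to -0.21), beside -0.03 for all tested genes. A DESeq2 Wald test called 17 of the 33 genes higher and 6 lower, where it called 19.3% of all tested genes, 9.97% higher and 9.34% lower. The genes it added were Mvk, Fdps, Srebf2, Ggps1 and Abca1. In bulk RNA a lower share of cells that express a gene and less RNA per cell cannot be told apart.

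**Figure D2:**
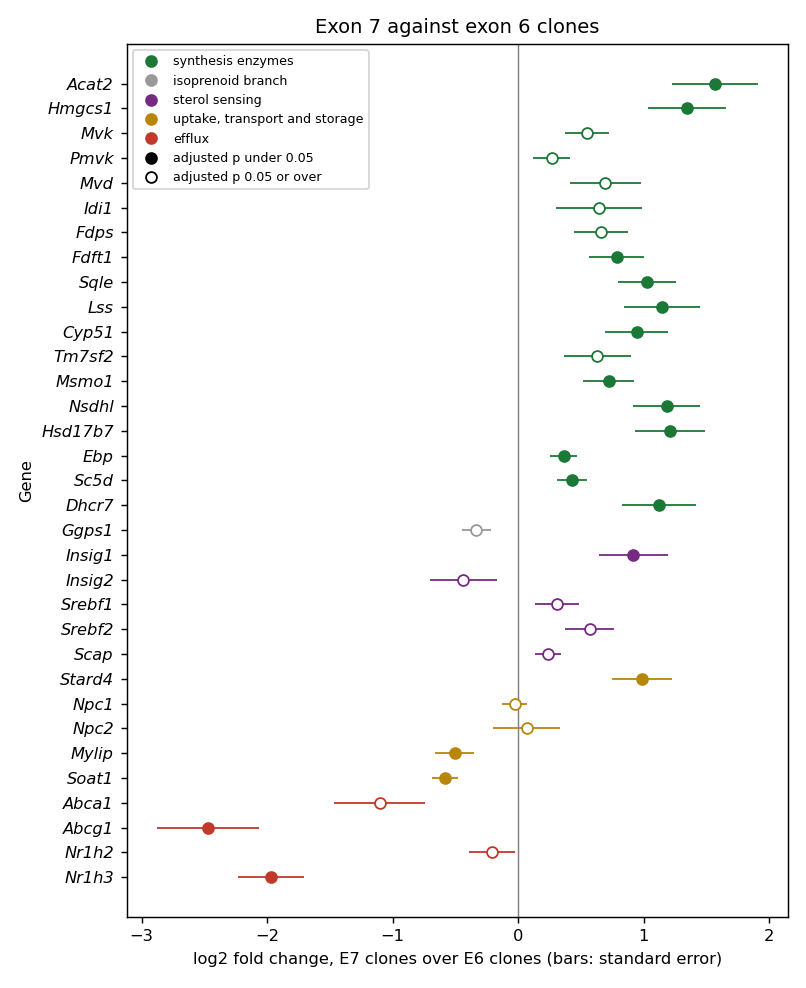
Log2 fold change of each gene between the 2 exon 7 clones and the 2 exon 6 clones (horizontal axis, points, with standard error as bars), with genes on the vertical axis coloured by group and filled where the adjusted p was under 0.05. All 18 synthesis enzymes lie to the right of 0 and all 4 efflux genes to the left.

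The early steps of synthesis, from acetyl-CoA to mevalonate, held the largest differences among the enzymes. Acat2 (ENSMUSG00000023832, chr17:12942890-12960747), which joins acetyl-CoA units, was at 21.7, 46.5 and 25.7 CPM in E6.1 and, in E6.2, 19.4, 22.1 and 30.6 CPM, against 128, 99.8 and 103 CPM in E7.1 and 75.7, 69.3 and 35.2 CPM in E7.2. Its difference was a log2 fold change of 1.57 ± 0.35 (SE, adjusted p = 0.0146), a 2.96-fold higher level. Only E7.2 replicate 3 fell within the range of the exon 6 libraries, and parental cells, at 80.98, 18.4 and 21.1 CPM, straddled both groups. Acat2 has a close relative, Acat3, so reads that fit both genes may have been lost or shared. Hmgcs1 (ENSMUSG00000093930, chr13:119690462-119708086), the HMG-CoA synthase, was at 108, 213 and 125 CPM in E6.1 and, in E6.2, 121, 152 and 168 CPM, against 684, 447 and 526 CPM in E7.1 and 291, 299.9 and 172 CPM in E7.2. This gave a log2 fold change of 1.34 ± 0.31 (SE, adjusted p = 0.0177), again with E7.2 replicate 3 alone inside the exon 6 range. Parental replicate 1, at 513 CPM, was close to the E7.1 libraries, and parental replicates 2 and 3, at 137 and 147 CPM, were at the level of the exon 6 clones.

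**Figure D3:**
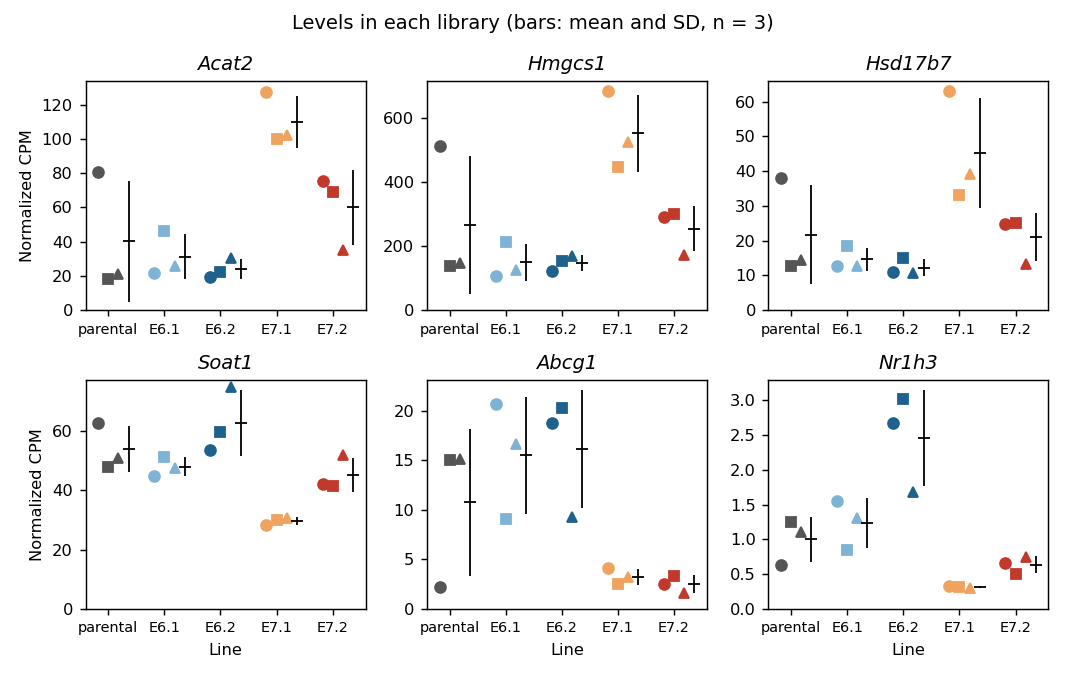
Normalized CPM (vertical axes, starting at 0) of 3 synthesis enzymes, the storage enzyme Soat1 and 2 efflux genes in each library of the 5 lines, with the mean and SD of the 3 libraries as bars. Abcg1 and Nr1h3 lie lower in all 6 exon 7 libraries than in all 6 exon 6 libraries, and parental replicate 1 (circle) sits away from the other 2 parental libraries for Acat2, Hmgcs1, Hsd17b7 and Abcg1.

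The mevalonate and isoprenyl steps differed less. Mvk (mevalonate kinase), Pmvk, Mvd, Idi1 and Fdps had positive log2 fold changes of 0.55, 0.27, 0.69, 0.64 and 0.66, and their adjusted p values lay between 0.0571 and 0.24, so that none was called by edgeR, while DESeq2 gave an adjusted p of 0.0201 for Mvk and 0.019 for Fdps. Fdps had a mean of 283 ± 57.2 CPM in E6.1 and 156 ± 26.7 CPM in its sister clone E6.2 (SD, n = 3), against 357 ± 24.6 CPM in E7.1 and 308 ± 128 CPM in E7.2. Here the 2 exon 6 clones themselves lay apart, E6.1 being nearer to the exon 7 clones. Idi1, the isomerase of isopentenyl diphosphate, varied widely within lines, at 63.5, 113 and 255 CPM in E6.1 alone. Ggps1, which leads farnesyl diphosphate away from sterols toward protein prenylation, had a log2 fold change of -0.33 ± 0.11 (adjusted p = 0.0675) and was called lower only by DESeq2 (adjusted p = 0.0384).

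From squalene to lanosterol all 3 enzymes were called higher. Fdft1, the squalene synthase, was at 56.97, 83.3 and 57.5 CPM in E6.1 and, in E6.2, 48.97, 51.2 and 92.9 CPM, against 148, 118 and 112 CPM in E7.1 and 106, 103 and 90.7 CPM in E7.2, with 101, 42.2 and 49.6 CPM in parental cells. It differed by a log2 fold change of 0.78 ± 0.22 (SE, adjusted p = 0.0345), and 26.8% of its exon bases are shared with Ctsb on the opposite strand, which unstranded counting could not separate. Sqle, the squalene epoxidase and a rate-controlling enzyme of the branch, was at 82.6, 149 and 94.7 CPM in E6.1 and, in E6.2, 82.5, 102 and 114 CPM, against 311, 230.4 and 259 CPM in E7.1 and 188, 195 and 119 CPM in E7.2, with 223, 89.8 and 96.98 CPM in parental cells. Its difference was a log2 fold change of 1.02 ± 0.23 (SE, adjusted p = 0.016). Lss, which closes the sterol ring to give lanosterol, was at 36.6, 68.6 and 41.2 CPM in E6.1 and, in E6.2, 41.3, 33.2 and 35.8 CPM, against 148, 96.7 and 109.6 CPM in E7.1 and 92.4, 95.5 and 35.7 CPM in E7.2, with 86.96, 30.6 and 28.8 CPM in parental cells, which amounted to a log2 fold change of 1.15 ± 0.30 (SE, adjusted p = 0.0281). In all 3 genes E7.2 replicate 3 was the only exon 7 library inside the range of the exon 6 clones. Parental replicate 1 was above the other parental libraries in each of them.

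The enzymes that turn lanosterol into cholesterol followed. Cyp51, the lanosterol demethylase, was at 158, 288 and 202 CPM in E6.1 and, in E6.2, 101, 124 and 159 CPM, against 464, 317 and 365 CPM in E7.1 and 339, 318 and 147 CPM in E7.2, with 336, 162 and 149.5 CPM in parental cells. It differed by a log2 fold change of 0.94 ± 0.25 (SE, adjusted p = 0.0297), although E7.2 replicate 3, at 147 CPM, was below all 3 E6.1 libraries. Msmo1, the oxidase that starts removal of the C4 methyl groups, was at 143, 223 and 157 CPM in E6.1 and, in E6.2, 141, 170.3 and 147 CPM, against 331, 299.9 and 313 CPM in E7.1 and 262, 252 and 177 CPM in E7.2, with 340.0, 140.0 and 151 CPM in parental cells, and differed by a log2 fold change of 0.72 ± 0.20 (SE, adjusted p = 0.0372). Nsdhl, the X-linked decarboxylase of the same complex, was at 43.9, 92.7 and 57.97 CPM in E6.1 and, in E6.2, 32.99, 38.5 and 42.5 CPM, against 176, 116 and 133 CPM in E7.1 and 113, 105 and 51.3 CPM in E7.2, with 112, 44.2 and 46.6 CPM in parental cells. Its difference was a log2 fold change of 1.18 ± 0.27 (SE, adjusted p = 0.0162). Hsd17b7 (ENSMUSG00000026675, chr1:169949535-169969241), the ketone reductase that completes C4 demethylation, was at 12.7, 18.3 and 12.8 CPM in E6.1 and, in E6.2, 11.1, 14.97 and 10.6 CPM, against 63.2, 33.2 and 39.2 CPM in E7.1 and 24.7, 25.2 and 13.2 CPM in E7.2, with 38.1, 12.6 and 14.5 CPM in parental cells. It gave a log2 fold change of 1.21 ± 0.28 (SE, adjusted p = 0.0176), and for this gene E7.2 replicate 3 was as low as E6.1 replicates 1 and 3. The 3 C4 demethylation enzymes were therefore higher in 5 of 6 exon 7 libraries than in all 6 exon 6 libraries.

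The last steps showed smaller differences except at Dhcr7. Ebp, the sterol isomerase, was at 24.2, 28.1 and 24.5 CPM in E6.1 and, in E6.2, 17.7, 21.4 and 24.9 CPM, against 38.3, 30.4 and 30.7 CPM in E7.1 and 29.2, 29.4 and 23.1 CPM in E7.2, with 26.3, 24.2 and 25.2 CPM in parental cells. It differed by a log2 fold change of 0.36 ± 0.11 (SE, adjusted p = 0.0466), the smallest change that was called here. Sc5d, the C5 desaturase, was at 47.5, 53.8 and 51.8 CPM in E6.1 and, in E6.2, 36.9, 43.1 and 37.8 CPM, against 84.6, 57.9 and 63.3 CPM in E7.1 and 58.9, 58.5 and 40.6 CPM in E7.2, with 54.9, 48.2 and 45.2 CPM in parental cells, and differed by a log2 fold change of 0.43 ± 0.12 (SE, adjusted p = 0.0354). The standard errors of these modest shifts were the smallest among the enzymes called. Dhcr7, which makes the last reduction to cholesterol, was at 28.7, 56.1 and 31.6 CPM in E6.1 and, in E6.2, 27.7, 22.6 and 51.5 CPM, against 92.9, 86.3 and 84.3 CPM in E7.1 and 78.8, 82.8 and 51.1 CPM in E7.2, with 71.6, 24.9 and 24.1 CPM in parental cells, and differed by a log2 fold change of 1.12 ± 0.29 (SE, adjusted p = 0.0272). Tm7sf2, a C14 reductase with 15.3% of its exon bases shared with Vps51, had a log2 fold change of 0.63 ± 0.27 (SE, adjusted p = 0.13) and was not called. For 14 of the 18 enzymes E7.2 replicate 3 was the only exon 7 library within the exon 6 range, a pattern shown by 4.69% of all tested genes.

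Among the 5 genes of sterol sensing, edgeR called Insig1 and DESeq2 called Insig1 and Srebf2. Insig1, which retains SCAP and is itself a SREBP target, was at 40.9, 64.4 and 46.2 CPM in E6.1 and, in E6.2, 32.7, 35.3 and 73.2 CPM, against 151, 93.4 and 104 CPM in E7.1 and 79.2, 76.4 and 63.1 CPM in E7.2, with 96.4, 34.2 and 35.1 CPM in parental cells. It was higher in the exon 7 clones by a log2 fold change of 0.92 ± 0.28 (SE, adjusted p = 0.0462). Insig2, its relative that does the same task, had a log2 fold change of -0.44 ± 0.27 (SE, adjusted p = 0.28), and E6.2 replicate 3, at 253 CPM, lay far above all other libraries. The transcription factor genes Srebf2 (SREBP-2, the main driver of sterol genes) and Srebf1 (SREBP-1) had log2 fold changes of 0.57 ± 0.19 (adjusted p = 0.0682) and 0.31 ± 0.17 (adjusted p = 0.24). For Srebf2 the DESeq2 adjusted p was 0.0258. Scap, at 32.1 ± 4.07 and 28.5 ± 2.87 CPM in E6.1 and E6.2 and 37.4 ± 1.89 and 33.8 ± 4.89 CPM in E7.1 and E7.2 (SD, n = 3), was not called either, with an adjusted p of 0.15. It shares 18.9% of its exon bases with a gene on the opposite strand.

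The genes of uptake, transport and storage moved in different directions. Stard4, a cytosolic sterol carrier and a SREBP target, was at 40.1, 73.01 and 51.96 CPM in E6.1 and, in E6.2, 43.6, 51.3 and 42.6 CPM, against 145, 107 and 118 CPM in E7.1 and 91.9, 96.3 and 51.9 CPM in E7.2, with 122, 49.9 and 49.7 CPM in parental cells. It was higher in the exon 7 clones by a log2 fold change of 0.98 ± 0.24 (SE, adjusted p = 0.0208), with E7.2 replicate 3 again inside the exon 6 range. Mylip, the ligase that directs lipoprotein receptors to the lysosome and an LXR target, was at 22.8, 22.4 and 24.3 CPM in E6.1 and, in E6.2, 25.1, 24.4 and 23.4 CPM, against 8.86, 15.2 and 15.9 CPM in E7.1 and 22.9, 22.05 and 17.9 CPM in E7.2, with 18.4, 27.5 and 30.7 CPM in parental cells. It was lower by a log2 fold change of -0.51 ± 0.15 (SE, adjusted p = 0.0477), and the E7.1 libraries, all below every E6 library, carried most of this difference, since E7.2 replicates 1 and 2 were close to the exon 6 clones. Soat1 (ENSMUSG00000026600, chr1:156424525-156474331), which esterifies cholesterol for storage in droplets, was at 45.01, 51.5 and 47.5 CPM in E6.1 and, in E6.2, 53.5, 59.7 and 75.1 CPM, against 28.2, 30.03 and 30.6 CPM in E7.1 and 42.3, 41.7 and 51.9 CPM in E7.2, with 62.8, 47.9 and 51.1 CPM in parental cells. It was lower by a log2 fold change of -0.58 ± 0.11 (SE, adjusted p = 0.00621). The 3 E7.1 libraries, between 28.2 and 30.6 CPM, were below every other library of the series. The lysosomal exporters Npc1 and Npc2 had log2 fold changes of -0.03 and 0.07 and were not called. Npc2 was high in E6.2 replicate 3 (171 CPM) and E7.2 replicate 3 (196 CPM) against 52.0 to 95.1 CPM elsewhere, and the sign of both small values turned with the libraries left out.

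The efflux genes Abcg1 and Nr1h3 held the largest differences among the 33. Abcg1 (ENSMUSG00000024030, chr17:31057698-31115777), which exports cholesterol to lipoprotein particles, was at 20.7, 9.09 and 16.7 CPM in E6.1 and, in E6.2, 18.8, 20.3 and 9.29 CPM, against 4.10, 2.48 and 3.16 CPM in E7.1 and 2.54, 3.33 and 1.60 CPM in E7.2. The lowest exon 6 library was above the highest exon 7 library, and the difference was a log2 fold change of -2.47 ± 0.41 (SE, adjusted p = 0.00376), or 5.55-fold lower in the exon 7 clones. In parental cells it was at 2.21, 15.01 and 15.1 CPM, so that parental replicate 1 lay among the exon 7 libraries. Nr1h3 (ENSMUSG00000002108, chr2:91184061-91202834), the gene of LXR alpha, was at 1.55, 0.850 and 1.30 CPM in E6.1 and, in E6.2, 2.68, 3.02 and 1.68 CPM, against 0.321, 0.306 and 0.298 CPM in E7.1 and 0.660, 0.507 and 0.738 CPM in E7.2, with 0.635, 1.25 and 1.11 CPM in parental cells. These groups did not overlap either, although E7.2 replicate 3 and E6.1 replicate 2 came close, and the difference was a log2 fold change of -1.97 ± 0.26 (SE, adjusted p = 0.000783), or 3.92-fold lower. Of all tested genes, 1.75% were lower and 1.81% higher in all exon 7 than in all exon 6 libraries, and Abcg1 and Nr1h3 were the only ones among the 33. Both genes are also expressed by macrophages. Of the 5 macrophage markers, Cd68 was at 3.63 to 12.96 CPM in the exon 6 and 9.46 to 30.4 CPM in the exon 7 clones, and Adgre1 at 0.421 to 1.60 and 1.25 to 4.49 CPM, while Csf1r, Mrc1 and Lyz2 were at 0 to 0.236 CPM in all libraries. Their part in the difference was not tested.

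The other efflux genes were not called by edgeR. Abca1 (ENSMUSG00000015243, chr4:53030787-53159895), the exporter that loads apolipoproteins, was at 297, 222 and 249.5 CPM in E6.1 and, in E6.2, 461, 324 and 74.1 CPM, against 127, 83.5 and 121 CPM in E7.1 and 163, 191 and 77.3 CPM in E7.2, with 79.04, 209 and 148 CPM in parental cells. Its log2 fold change was -1.10 ± 0.36 (adjusted p = 0.0607). DESeq2 called it lower (adjusted p = 0.015). E6.2 replicate 3, at 74.1 CPM, was the lowest of all 15 libraries while the other E6.2 libraries were the highest, and without it Abca1 was called lower, with a log2 fold change of -1.32 (adjusted p = 0.00482), in a fit that called 26.8% of all genes. Nr1h2, the gene of LXR beta, had a log2 fold change of -0.21 ± 0.18 (SE, adjusted p = 0.47). Its level was highest in E6.2 replicate 3 and E7.2 replicate 3, at 43.6 and 33.8 CPM, against 13.5 to 24.5 CPM in the other libraries.

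Compared clone by clone, the means of the enzymes were all ordered alike. The mean level of all 18 synthesis enzymes was higher in both exon 7 clones than in both exon 6 clones, as was that of 21.1% of all tested genes. Abca1, Abcg1, Nr1h3, Soat1, Mylip and Ggps1 had lower means in both exon 7 clones, as had 27% of tested genes. When the 3 libraries of each clone were summed and 2 clones were tested against 2, 0 of the 33 genes and 1 of all 13904 genes (0.00719%) were called. In that edgeR fit the adjusted p was 0.27 for Abcg1 and 0.36 for Nr1h3 and Acat2, and 15 of the 33 genes were higher and 3 lower at an unadjusted p under 0.05, as were 6.75% and 5.86% of all tested genes. The calls above therefore describe these 4 clones and not exons in general. They also depended on single libraries. Soat1, Nr1h3 and Abcg1 were called lower whichever of the 12 clone libraries was left out, but the number called higher changed. Without E6.1 replicate 1 or without E6.1 replicate 3 it was 0, in fits that called 1.68% and 1.72% of all genes higher. It was 15 without E6.1 replicate 2 (5.79% of all genes higher) and 5 to 9 without any of the E7.1 libraries, E7.2 replicates 1 and 2 or E6.2 replicates 1 and 2 (2.49% to 4.76%). It came to 19 without E6.2 replicate 3 (13.9%) and to 20 without E7.2 replicate 3 (10.5%). Without E6.2 replicate 1 and E7.2 replicate 3 together, the libraries with the most ribosomal and mitochondrial counts, 16 genes were called higher and 4 lower, with 18.5% of all genes called, 10.3% higher and 8.19% lower. The sign of the median over the 18 enzymes stayed positive in all of these, between 0.70 and 1.01.

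Library by library, the median of the synthesis enzymes and that of the efflux genes lay on opposite sides of the parental mean in 14 of 15 libraries. The median log2 ratio of the 18 enzymes to the parental mean was 0.64 in parental replicate 1, -0.59 in replicate 2 and -0.51 in replicate 3, while that of the 4 efflux genes was -0.73, 0.39 and 0.08. This mean includes parental replicate 1, so a library at the level of parental replicates 2 and 3 falls on opposite sides as well. The count of 14 of 15 is therefore a description and no test of a difference from parental cells. Parental replicate 1 had the highest level of the 3 parental libraries for all 18 enzymes, where it was the highest for 40.3% of all tested genes. In E6.1 the medians were -0.45, 0.28 and -0.19 for the enzymes and 0.76, -0.16 and 0.49 for efflux. E6.1 replicate 1 was the lowest of its line for 18 of 18 enzymes, beside 33.8% of all tested genes. It was the highest for 3 of 4 efflux genes, beside 35.9%. E6.1 replicate 2 was the highest for 17 enzymes, beside 37.6% of all tested genes, and the lowest for all 4 efflux genes, beside 39.7%. In E6.2 the enzyme medians were -0.56, -0.54 and -0.33 and the efflux medians 1.07, 1.03 and 0.24. In E7.1 they were 1.15, 0.72 and 0.80 for the enzymes and -1.0002, -1.12 and -0.86 for efflux, so that all 3 libraries kept to the same side. E7.2 was the exception, since replicate 3 was low in both, at -0.23 for the enzymes beside 0.55 in each of the other 2 libraries, and at -0.65 for efflux beside -0.26 and -0.43. The median of all tested genes lay between -0.04 and 0.00 in every library. With DESeq2 size factors in place of TMM, the enzyme and efflux medians kept their sign in all 15 libraries.

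**Figure D4:**
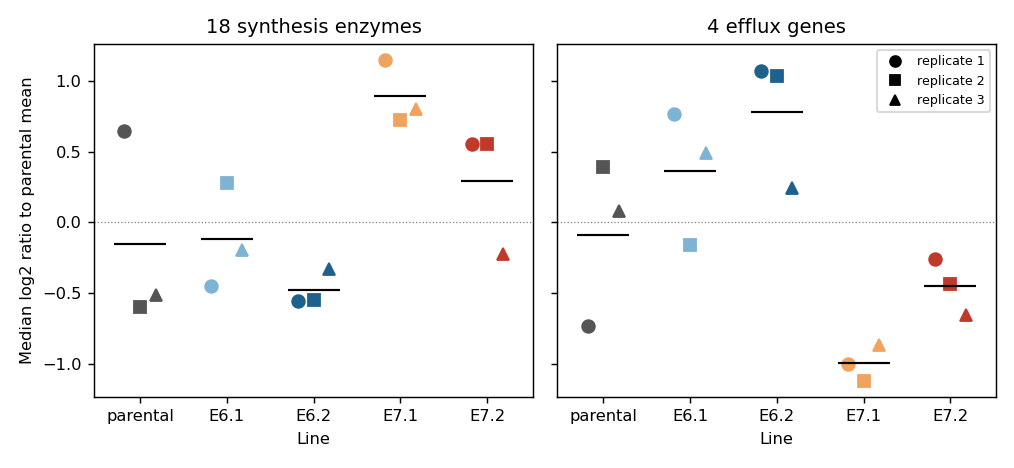
Median log2 ratio to the parental mean (vertical axis) of the 18 synthesis enzymes (left) and the 4 efflux genes (right) in each library, with the mean of the 3 libraries of a line as a bar. Parental replicate 1 (circle) sits at 0.64 for the enzymes and -0.73 for efflux, on the side of the E7.1 libraries.

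Against parental cells few genes were called, and the parental libraries themselves were spread. In E7.1, 0 of the 33 genes were called higher and 2 lower, where 1.22% of all tested genes were called, 0.396% higher and 0.82% lower. The 2 genes were Soat1, with a log2 fold change of -0.87 ± 0.15 (SE, adjusted p = 0.0175), and Nr1h3, with a log2 fold change of -1.68 ± 0.38 (SE, adjusted p = 0.0483). Neither was called without parental replicate 3 or without any single E7.1 library, and without parental replicate 2 only Soat1 was. The enzymes had a median log2 fold change of 0.93 in E7.1 with all 18 positive, and 14 of them, and 9.94% of all tested genes, were higher at an unadjusted p under 0.05, but their smallest adjusted p was 0.10, at Fdft1. A DESeq2 Wald test called 5 enzymes higher and 4 genes lower, with 8.32% of all genes called, 4.39% higher and 3.93% lower. In a comparison of ranges, 12 of the 18 enzymes, Acat2, Lss, Nsdhl and Dhcr7 among them, and Scap were higher in all 3 E7.1 libraries than in all 3 parental libraries, as were 16.4% of all tested genes. Soat1, Nr1h3, Mylip and Insig2 were lower in all, as were 15.6%. Mylip missed the threshold narrowly, with a log2 fold change of -0.94 ± 0.22 (SE, adjusted p = 0.0529).

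The number of genes called in E7.1 turned on parental replicate 1. Its level lay within the range of the 6 exon 7 libraries for 17 of 18 enzymes and 4 of 4 efflux genes, and within that range for 68.2% of all tested genes. Parental replicates 2 and 3 lay within the exon 7 range for 5 enzymes each, beside 60.0% and 58.9% of all tested genes. They lay within the range of the exon 6 libraries for 13 and 16 enzymes, beside 82.1% and 76.6% of all tested genes. Parental replicate 1 lay within the exon 6 range for 5 enzymes, beside 66.9% of all tested genes. When parental replicate 1 was left out, 14 of the 33 genes were called higher in E7.1 and 4 lower, with 6.81% of all genes called, 3.51% higher and 3.3% lower. Acat2 then had a log2 fold change of 2.49 (adjusted p = 0.00499), Lss of 2.00 (adjusted p = 0.0146) and Hmgcs1 of 1.98 (adjusted p = 0.00739). Abcg1 had -2.20 (adjusted p = 0.0115) and Nr1h3 -1.91 (adjusted p = 0.015). In depth (32308691 counts) and mitochondrial share (3.58%) parental replicate 1 lay within the range of the other libraries. Its share of counts on Gm42418 (2.22%) and its 19243 genes with a count were the second highest after E6.2 replicate 1 (10.35% and 19799 genes), against at most 0.315% and 18815 genes elsewhere. The enzyme median of E6.2 replicate 1, -0.56, lay on the other side of the parental mean. What made parental replicate 1 differ was not tested.

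**Figure D5:**
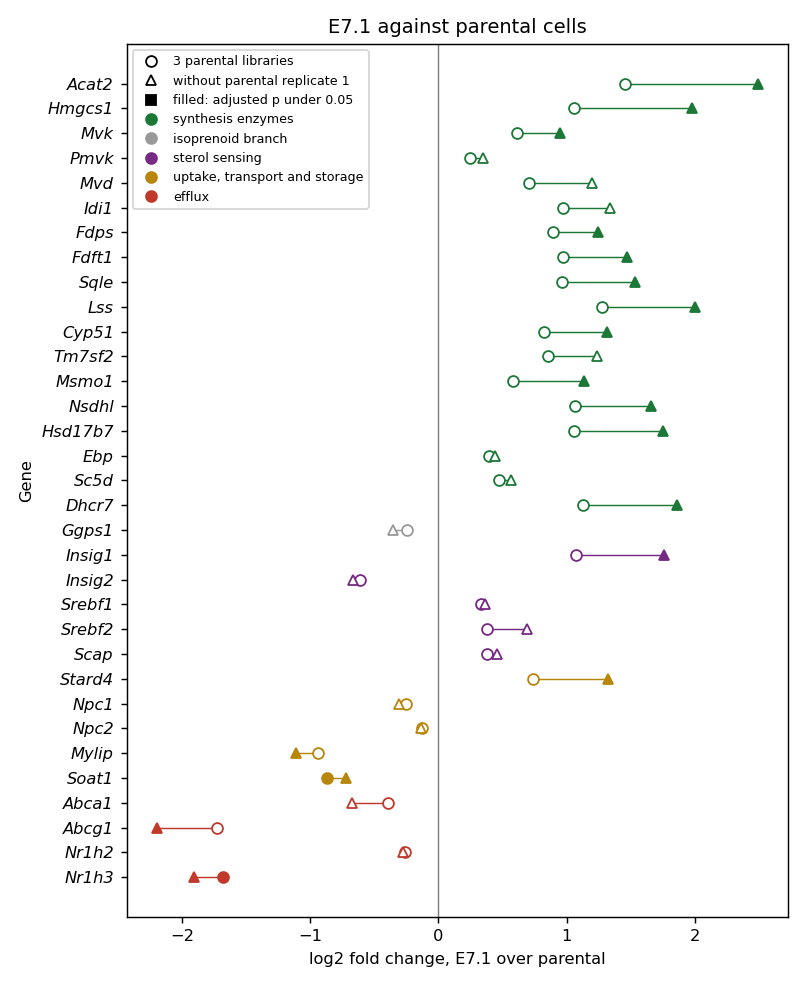
Log2 fold change between E7.1 and parental cells (horizontal axis) for each gene (vertical axis, coloured by group), with all 3 parental libraries (circles) and without parental replicate 1 (triangles), filled where the adjusted p was under 0.05. Filled are 2 genes with all libraries and 18 without parental replicate 1.

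In the other clones 0 of the 33 genes were called against parental cells. For E7.2, where 0.295% of all genes were called, 1 gene was higher and 1 lower at an unadjusted p under 0.05, and DESeq2 called 1 lower. The enzyme median in E7.2 was 0.36 and the efflux median -0.34, and Abcg1, with a log2 fold change of -2.11 ± 0.57 (SE, adjusted p = 0.17), had the largest change. For E6.1, where 0.324% were called, 0 genes had an unadjusted p under 0.05 and DESeq2 called 0. The enzyme median in E6.1 was 0.00 and the efflux median 0.41, and Abca1 was higher in all 3 E6.1 libraries than in all parental libraries, as were 11.3% of tested genes. For E6.2, where 1.17% were called, 1 gene was higher and 1 lower at an unadjusted p under 0.05, and DESeq2 called 1 higher. The enzyme median was -0.32 and the efflux median 0.78 in E6.2, with Nr1h3 at a log2 fold change of 1.30 ± 0.35 (SE, adjusted p = 0.12). For the mean of the 4 clones, where 0.503% of genes were called, 0 of the 33 passed with edgeR, 2 were lower at an unadjusted p under 0.05, and DESeq2 called 0. There the enzymes had a median of 0.19 and the efflux genes of -0.04. Over all tested genes, 2.87% to 6.26% were higher and 3.84% to 7.34% lower at an unadjusted p under 0.05 in these 4 comparisons, and DESeq2 called 1.11% to 2.86%. All these comparisons share the same 3 parental libraries and are not independent of each other.

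Other genes of sterol and lipid metabolism were counted in the same fit between exon 7 and exon 6 clones. In the fatty acid branch, which SREBP-1 drives, 7 of 14 tested genes were called higher and 0 lower, beside 6.21% and 5.85% of all tested genes, the shares against which the other lists stand too. Scd1, the stearoyl-CoA desaturase, had a log2 fold change of 1.79 ± 0.38 (SE, adjusted p = 0.0129) and Fasn, the fatty acid synthase, of 0.76 ± 0.18 (adjusted p = 0.0174). The others were Scd2 (1.01), Lpin1 (1.00), Elovl6 (0.90), Rdh11 (0.81) and Acly (0.70). Of 8 genes of SREBP processing and sterol-regulated turnover, the ligase gene Rnf145 was higher (0.39) and Erlin1, of a complex that binds sterols and limits SREBP, was lower (-0.99). Of 12 genes of prenylation, dolichol and ubiquinone, which share the mevalonate steps, 0 were called by edgeR and 0 had an unadjusted p under 0.05. Of 16 tested genes of other sterol transport and LXR function, 2 were called lower, namely Soat2, the other cholesterol esterification enzyme, at -2.48 ± 0.52 (SE, adjusted p = 0.0121) and Osbpl2, a sterol carrier, at -0.50. DESeq2 called 10 higher in the fatty acid branch, 1 higher and 2 lower in SREBP processing, 0 in the prenylation list and 2 lower in the last list, beside 9.97% and 9.34% of all tested genes. None of these genes was called in any comparison of a clone with parental cells by edgeR. In E7.1, where DESeq2 called 4.39% of all genes higher and 3.93% lower, it called 3 genes of the fatty acid branch higher, 1 higher and 1 lower of SREBP processing and 1 lower of other sterol transport and LXR function. In E6.2, where it called 0.784% higher and 2.08% lower, it called 3 of the fatty acid branch lower, and in the other comparisons with parental cells it called 0 of these genes.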

How the data were processed

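RNA was extracted from cells of 5 lines with 3 biological replicates each, and libraries were sequenced on an Illumina instrument. The deposited files hold raw counts of read pairs per gene that the authors made with HISAT (build mm10) and featureCounts 1.5.0, per the file headers and the submitters' processing notes. Read pairs were counted over exons without regard to strand, and the HISAT version is not given in the sources used here. No column was left out, and 92 spike-in features, all at 0 counts, were removed.

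Counts were fitted with edgeR 4.0.16 (R 4.3.3; TMM, default low-count filter, quasi-likelihood F test) on 13904 genes and all 15 libraries with line as the factor. Adjusted p is Benjamini-Hochberg over all tested genes, called under 0.05, and standard errors were taken as the log2 fold change over the root of F. The exon contrast is the mean of E7.1 and E7.2 minus that of E6.1 and E6.2. Alternatives were DESeq2 1.42.0, other scaling, no filter, a replicate block, left-out libraries and the clone as the unit. The study's own methods also used edgeR with an adjusted p under 0.05, but together with a fold-change cutoff, given as 2-fold where its gene numbers are shown. The calls here were made without a fold threshold. Fits were tested on simulated data. Values per library are TMM-scaled counts per 1000000 (CPM), and 3 counts correspond to 0.0751 to 0.118 CPM. Gene coordinates, exon lengths and shared exon bases come from the annotation held in the deposited count files (GRCm38). Promoters come from RefSeq, and GENCODE exons were used to keep the promoter stretches shown outside annotated exons. Every member was named, and those called at least once have their value given in every library. The members and lists were chosen with earlier results of these data known, as was the joint exclusion of E6.2 replicate 3 and E7.2 replicate 3, which an earlier analysis described as deviating alike. The joint exclusion of the libraries richest in ribosomal and mitochondrial counts was chosen after seeing the data.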

Additional observations from a re-analysis of the deposited data

Results flagged for a closer look

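For 18 of the 33 genes the change from parental cells differed between the exon 7 clones and the exon 6 clones by the test of that difference (edgeR, adjusted p under 0.05). As log2 fold changes of exon 7 over exon 6 clones, the 12 synthesis enzymes among them were Acat2 1.57, Hmgcs1 1.34, Hsd17b7 1.21, Nsdhl 1.18, Lss 1.15, Dhcr7 1.12, Sqle 1.02, Cyp51 0.94, Fdft1 0.78, Msmo1 0.72, Sc5d 0.43 and Ebp 0.36. The SREBP targets Insig1 (0.92) and Stard4 (0.98) were also higher. Lower were the exporter Abcg1 (-2.47), the LXR alpha gene Nr1h3 (-1.97), the storage enzyme Soat1 (-0.58) and the ligase gene Mylip (-0.51). The contrast rests on 2 clones for each exon, and 0 of the 18 passed with the clone as the unit.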

How the results depend on the processing

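Between exon 7 and exon 6 clones, 14 genes were higher and 4 lower. DESeq2 gave 17 and 6 (19.3% of all genes called), an added 2-fold threshold left 7 and 2, leaving out E6.2 replicate 3 with E7.2 replicate 3, which deviated alike, gave 22 and 4 (33.1% of all genes called), and the clone as the unit gave 0 and 0. Leaving out single libraries gave 0 to 20 higher and 3 to 5 lower, with 2.77% to 26.8% of all genes called. In E7.1 against parental cells, where 0 were higher and 2 lower, no low-count filter gave 2 higher, DESeq2 gave 5 higher and 4 lower, and 1 was lower with the compared libraries only or with the 2-fold threshold. Leaving out single libraries gave 0 to 14 higher and 0 to 4 lower there. Both calls in E7.1 were lost without parental replicate 3 or any of the E7.1 libraries. In E7.2, where none was called, 1 gene was lower with no filter or with DESeq2, 1 was higher without E6.2 replicate 3 and E7.2 replicate 3, and single libraries left out gave 0 to 1 lower. In E6.2, where none was called, DESeq2 called 1 higher and leaving out E6.2 replicate 3 and E7.2 replicate 3 gave 2. For E6.1 and the mean of 4 clones the counts stayed at 0 under every alternative run. The cause of these shifts was not tested, beyond the fewer samples or stricter threshold that some of them bring by construction.

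Replicate numbers were not taken to pair the libraries of the 5 lines. Deviations of same-numbered libraries from their line means correlated at 0.05 on average (-0.12 to 0.43, 11 of 30 pairs over 0.1). Those of differently numbered libraries correlated at -0.025 on average (-0.40 to 0.33, 9 of 60 pairs over 0.1). The 3 same-numbered pairs of E6.2 with E7.2 were all over 0.1 (0.17, 0.28 and 0.43), and 10 of 15 libraries correlated best with their own number. With the replicate block, 12 genes were higher and 3 lower between exon 7 and exon 6 clones (10.1% of all genes called), without Insig1 (adjusted p = 0.0624), Ebp (0.0689) and Mylip (0.0501), and in E7.1 only Soat1 was called, 1 lower.

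Signs turned only for Npc2 and Npc1 between exon 7 and exon 6 clones. Npc2 was below 0 without E6.2 replicate 1 (-0.05), E6.2 replicate 2 (-0.03), E7.1 replicate 2 (-0.00497) or E7.2 replicate 3 (-0.16), and at -0.31 without E6.2 replicate 1 and E7.2 replicate 3. Npc1 ranged from -0.080 to 0.020 over single libraries left out, with 0.020 without E6.2 replicate 1, 0.0027 without E7.1 replicate 3, 0.01 without E7.2 replicate 1, 0.00497 without E7.2 replicate 2 and 0.0080 with the clone as the unit. None of these passed the test. The other values, of single genes and of the enzyme and efflux medians per library, were counted together. Of these, 877 stayed the same, 70 newly passed and 144 no longer passed. Staying the same meant direction and side of the threshold for genes, and a shift below the SD of the line for medians. Depth limits Nr1h3 most, at 10 to 100 counts per library.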
